A study of Mus musculus with 10 samples.

Results

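The transcription factors that carry the circadian clock to its output genes were followed through the gastrocnemius of smoke-exposed mice with and without muscle AHR. The 7 genes *Dbp*, *Tef*, *Hlf*, *Nfil3*, *Bhlhe40*, *Bhlhe41* and *Ciart* were taken from the 49315 genes of the count table by their Ensembl identifiers, and all 7 passed the filter on low counts. *Hlf* and *Tef* were the members with the smallest p between genotypes, with mean levels 1.43-fold and 1.18-fold higher in AHRmKO than in AHRfl/fl muscle, but neither passed the test once all genes were accounted for. *Dbp* and *Hlf* reached their highest levels in the same 2 mice, both AHRmKO, in which the clock gene *Arntl* was lowest. *Nfil3* varied most from mouse to mouse.

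The core clock of each cell is a feedback loop in which the ARNTL (also called BMAL1) and CLOCK proteins bind E-box sequences and activate the *Per*, *Cry* and *Nr1d* genes, whose products in turn shut the loop down. The clock acts on other genes largely through intermediate factors. DBP, TEF and HLF are the PAR bZIP activators, which bind D-box sequences, and NFIL3 is a bZIP repressor that competes for the same sites. BHLHE40 and BHLHE41 (DEC1 and DEC2) are bHLH repressors that compete with ARNTL and CLOCK at E-boxes, and CIART (also called CHRONO) is a repressor that binds ARNTL. AHR is a bHLH-PAS factor of the same protein class as ARNTL and CLOCK and shares the partner ARNT with other members of that class.

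RNA came from 10 male mice of C57BL6J background, 5 AHRfl/fl and 5 AHRmKO. The AHRfl/fl mice carried floxed *Ahr* alleles and were littermates without Cre, and the AHRmKO mice carried the same alleles with HSA-MCM, a tamoxifen-inducible Cre under the human skeletal actin promoter that acts in muscle fibres only, so other cells of the muscle kept *Ahr*. Every mouse of both groups was exposed to cigarette smoke for 16 weeks, 5 days per week and 2 times 1 h per day, at 220 ± 80 mg/m3, starting 4 weeks after tamoxifen by the labels, and the muscle was taken 72 h after the last exposure by the series description. The study's text differs in places on both times, with a shorter interval after tamoxifen and an earlier start of the harvest. Age in weeks, the clock time of harvest and the litters were not given in the sources used here, and no air-exposed mice were analysed here. Whether fewer cells of a type or less RNA per cell lay behind a level cannot be told apart in RNA from whole muscle.

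Total counts per mouse were between 30393035 and 37954388, and the members had between 234 and 9972 counts in a mouse, so counting error was small beside the spread between mice. The unit of level is CPM, a gene's count scaled to its library's TMM-normalized size. *Ahr* itself, counted over all of its exons whereas only exon 2 is deleted, had 2.02 ± 0.681 CPM (SD, n = 5) in AHRfl/fl and 1.58 ± 0.443 CPM (SD, n = 5) in AHRmKO muscle, with a log2 fold change of -0.35 (edgeR adjusted p = 0.844) and overlapping groups, so these counts do not check the labels. The Y-linked gene *Ddx3y* had at least 1852 counts in every mouse. *Xist*, made from the inactive X of females, had 44 to 75 counts in 5 mice (AHRfl/fl mice 11, 15 and 33, AHRmKO mice 9 and 22) and at most 3 in the other 5. The summed level of 7 myofibre markers was from 102982 to 133958 CPM in AHRfl/fl and from 118942 to 134374 CPM in AHRmKO muscle, and that of 5 slow-fibre markers ranged widely in both groups, from 13.8 to 1119 and from 68.0 to 1312 CPM.

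Promoter sequences were read for 6 of the 7 members (all but *Bhlhe40*) from RefSeq on GRCm38.p6, as the 250 bases before each start, to show where the letters of the clock's binding sites lie. The E-box CACGTG was in the promoters of 3 members, *Tef* (at both of its starts), *Bhlhe41* and *Ciart*, and 6.02% of 32851 mouse promoters of this length hold it. *Ciart* held it 3 times. The window of the first *Tef* start (chr15:81802423-81802672) lies within annotated exons of *Tef* itself. Of the 250 bases of the other windows, annotated exons of the same gene covered 159 for *Dbp* and 138 for *Bhlhe41*. They covered 34 for *Nfil3*, 23 for *Ciart* and 0 for *Hlf* and the second *Tef* start. The D-box letters TTATGTAA or TTACGTAA and the E-prime box CACGTT were in none of the members' windows, against 0.931% and 3.85% of all promoters, and the nuclear receptor motif TAGGTCA was in that of *Nfil3* only (2.23% of all). GCGTG, the core letters of AHR sites, were in 5 of the 6 members (in *Tef* at the second start only) and in 28.2% of all promoters. The first share counts members and the second counts promoters. The members' windows were 60.4 to 81.6% G or C, and that content was not computed for all promoters, so the shares do not measure enrichment. Both strands were searched and each motif was counted on its own, so letters could be shared between motifs. A match describes the letters and is not a bound site. The stretches below lie outside the annotated exons of each gene, are written 5′ to 3′ on the strand of the gene, and have the E-box in capitals. They are *Ciart* with its 3 E-boxes (chr3:95882252-95882478, minus strand), the second start of *Tef* (chr15:81811164-81811413, plus strand), *Bhlhe41* (chr6:145865559-145865670, minus strand), and *Hlf* (chr11:90390918-90391167, minus strand), which is shown because it differed most between genotypes and has no E-box there.
Ciart: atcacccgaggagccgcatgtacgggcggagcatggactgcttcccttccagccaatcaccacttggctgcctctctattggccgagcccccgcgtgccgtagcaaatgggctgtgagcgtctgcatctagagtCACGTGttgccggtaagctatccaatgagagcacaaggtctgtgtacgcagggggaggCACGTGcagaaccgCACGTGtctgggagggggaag
Tef, second start: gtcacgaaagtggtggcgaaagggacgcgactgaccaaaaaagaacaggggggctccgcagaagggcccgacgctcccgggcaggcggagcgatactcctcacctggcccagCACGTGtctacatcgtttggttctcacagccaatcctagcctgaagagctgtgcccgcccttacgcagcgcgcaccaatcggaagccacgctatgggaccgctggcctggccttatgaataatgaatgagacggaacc
Bhlhe41: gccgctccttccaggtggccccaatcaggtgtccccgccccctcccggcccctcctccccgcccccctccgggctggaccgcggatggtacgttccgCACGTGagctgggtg
Hlf: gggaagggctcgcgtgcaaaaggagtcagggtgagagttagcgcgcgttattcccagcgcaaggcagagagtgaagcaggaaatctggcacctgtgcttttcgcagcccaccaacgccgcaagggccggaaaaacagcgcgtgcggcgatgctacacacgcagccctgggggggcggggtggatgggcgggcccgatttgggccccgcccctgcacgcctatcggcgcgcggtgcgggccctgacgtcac

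The genotypes were compared to find whether loss of muscle AHR moved the clock's output factors under smoke. Of the 7 members, 6 had a higher estimate in AHRmKO muscle and 0 passed an adjusted p of 0.05 in edgeR's quasi-likelihood test. Over all 14714 genes tested 1 gene, *Esr1*, was called (0.0068%) and 51.5% had a higher estimate in AHRmKO muscle. *Tef* and *Hlf* had an unadjusted p under 0.05, as did 972 genes in all, or 6.61%. With the DESeq2 Wald test 21 genes were called and again 0 members. The groups overlapped in all 7 members, whereas 206 genes, or 1.4%, did not overlap between genotypes.

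**Figure D1:**
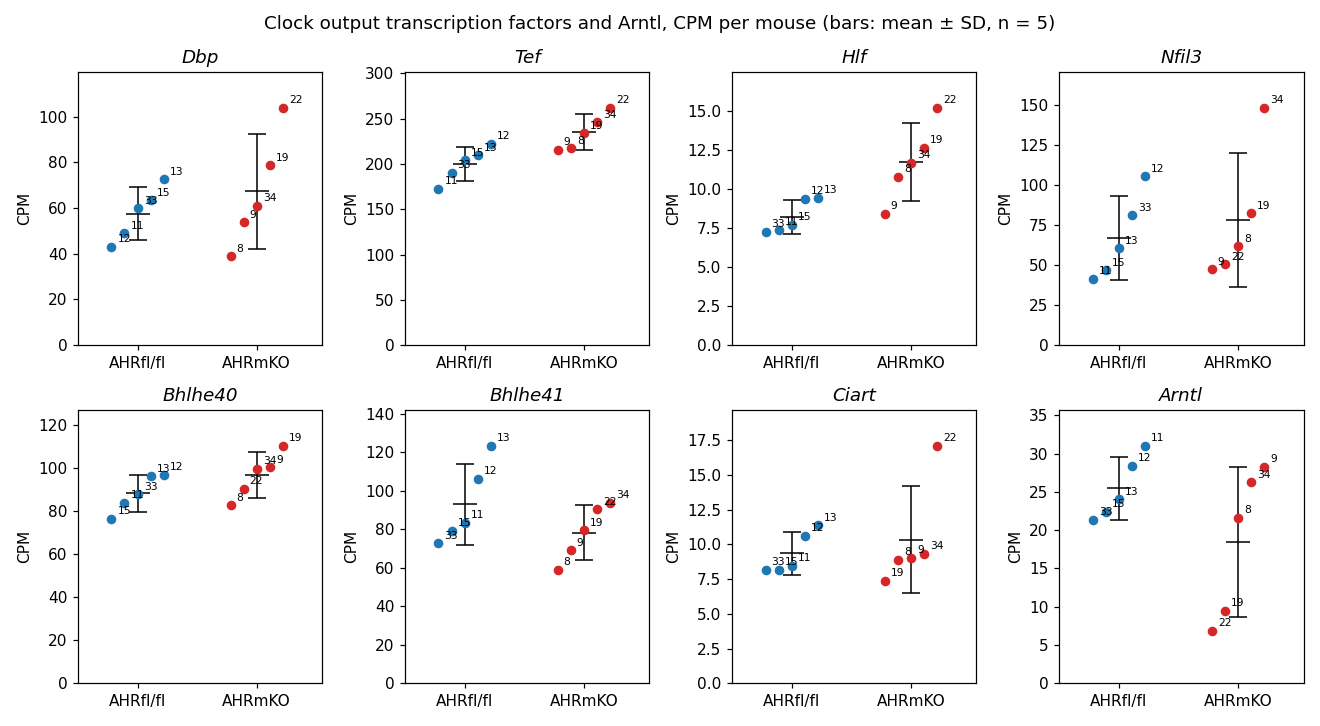
CPM of the 7 members and of *Arntl* in each mouse (points, numbered by mouse) in 5 AHRfl/fl and 5 AHRmKO muscles, with the mean and SD as bars. AHRmKO mice 19 and 22 are the lowest in *Arntl* and the highest in *Dbp* and *Hlf*, and the genotypes overlap in every panel.

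*Hlf* (ENSMUSG00000003949, GRCm38 chromosome 11, 90336536 to 90390895, minus strand), the least abundant of the PAR bZIP genes, was at 7.36, 9.34, 9.42, 7.69 and 7.23 CPM in AHRfl/fl mice 11, 12, 13, 15 and 33. It was at 10.8, 8.38, 12.6, 15.2 and 11.7 CPM in AHRmKO mice 8, 9, 19, 22 and 34. All AHRmKO mice but mouse 9 lay above every AHRfl/fl mouse. The means were 8.21 ± 1.08 and 11.7 ± 2.497 CPM (SD, n = 5 each), with a log2 fold change of 0.51 (SE 0.144, 95% interval 0.20 to 0.82, edgeR unadjusted p = 0.00327, adjusted p = 0.606). The two-sided exact permutation test over the mice gave p = 0.0238. Leaving out any one mouse kept the log2 fold change between 0.40 and 0.62, and without AHRmKO mice 19 and 22 it was 0.33 (edgeR adjusted p = 0.585).

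*Tef* (ENSMUSG00000022389, chromosome 15, 81802421 to 81826863, plus strand) had the most counts of the members. Its levels were 172.5, 222.1, 209.3, 203.8 and 190.5 CPM in AHRfl/fl mice 11, 12, 13, 15 and 33. In AHRmKO mice 8, 9, 19, 22 and 34 they were 217.3, 215.3, 233.6, 262.2 and 245.8 CPM. Only AHRfl/fl mouse 12 reached into the AHRmKO range. The means of 199.6 ± 18.96 and 234.9 ± 19.7 CPM (SD, n = 5 each) gave a log2 fold change of 0.23 (SE 0.0812, 95% interval 0.06 to 0.41, edgeR unadjusted p = 0.0125, adjusted p = 0.665). The two-sided exact permutation p was 0.0238. The log2 fold change of *Tef* was 0.18 without AHRmKO mice 19 and 22 (edgeR unadjusted p = 0.0713) and 0.18 with *Arntl* as a covariate (edgeR unadjusted p = 0.0680). Of the exon bases of *Tef* only 193 are shared with the antisense gene *Gm17597*, which had 1 to 9 counts.

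*Dbp* (ENSMUSG00000059824, chromosome 7, 45705088 to 45710203, plus strand), known as the PAR bZIP gene with the strongest daily rhythm in many tissues, was at 49.0, 43.0, 72.5, 63.4 and 59.9 CPM in AHRfl/fl mice 11, 12, 13, 15 and 33. In AHRmKO mice 8, 9, 19, 22 and 34 it was at 39.0, 53.7, 78.7, 104.0 and 61.0 CPM. AHRmKO muscle thus held both the lowest and the highest mouse. The means were 57.6 ± 11.7 and 67.3 ± 25.0 CPM (SD, n = 5 each), and the log2 fold change of 0.22 (SE 0.253, 95% interval -0.34 to 0.79, edgeR adjusted p = 0.909) did not exceed the variation between mice (two-sided exact permutation p = 0.556). It turned to -0.17 without AHRmKO mice 19 and 22 and was 0.01 without mouse 22 alone. *Dbp* shares 539 of its 2993 exon bases with *Sphk2* on the opposite strand, and whether the reads were counted by strand was not given. *Sphk2* had 600 to 722 counts per mouse, or 16.0 to 20.4 CPM.

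The summed level of 2 satellite cell markers was, like *Hlf* and *Tef*, higher on average in AHRmKO muscle. The sum of *Pax7* and *Calcr*, neither of them at 0 in all mice, was 1.07 to 1.60 CPM in AHRfl/fl and 1.57 to 2.47 CPM in AHRmKO muscle (two-sided exact permutation test, p = 0.0238), and its part in the result was not tested. *Pax7* alone had a log2 fold change of 0.34 (edgeR unadjusted p = 0.134, adjusted p = 0.815; exact permutation p = 0.167), and *Calcr*, with 1 to 16 counts per mouse, did not pass the filter. The other 8 marker lists had permutation p from 0.222 to 0.810 for their sums.

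*Nfil3* (ENSMUSG00000056749, chromosome 13, 52967209 to 52981073, minus strand), the repressor that opposes the PAR bZIP factors, was at 41.6, 105.6, 60.4, 46.7 and 81.2 CPM in AHRfl/fl mice 11, 12, 13, 15 and 33. In AHRmKO mice 8, 9, 19, 22 and 34 it was at 61.7, 47.4, 82.5, 50.7 and 148.5 CPM. One mouse of each group, AHRfl/fl mouse 12 and AHRmKO mouse 34, stood highest. The means of 67.1 ± 26.4 and 78.2 ± 41.7 CPM (SD, n = 5 each) gave a log2 fold change of 0.22 (SE 0.385, 95% interval -0.65 to 1.09, edgeR adjusted p = 0.953; two-sided exact permutation test, p = 0.659). Without AHRmKO mouse 34 it was -0.15, and when the 5 mice with *Xist* counts were marked by a covariate, which was decided once the data had been seen, it was 0.02.

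The mouse highest in *Nfil3* in each group was also highest in the sum of 12 stress and steroid response genes. This sum was 1433 CPM in AHRfl/fl mouse 12 and 1224 CPM in AHRmKO mouse 34, the highest of each group, where the lowest mice were at 457 and 562 CPM. AHRmKO mouse 19, second in *Nfil3* in its group, was at 609 CPM, below mouse 22 at 661 CPM, which was low in *Nfil3*. The part of these genes in the level of *Nfil3* was not tested. Of these 12 genes 0 were called between genotypes by edgeR and 0 had an unadjusted p under 0.05, with a median log2 fold change of 0.02 beside 0.0056 over all genes tested.

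*Bhlhe40* (ENSMUSG00000030103, chromosome 6, 108660629 to 108666925, plus strand) varied little. It was at 83.9, 97.0, 96.3, 76.6 and 88.0 CPM in AHRfl/fl mice 11, 12, 13, 15 and 33 and at 82.9, 100.5, 110.5, 90.6 and 99.9 CPM in AHRmKO mice 8, 9, 19, 22 and 34. The groups lay over each other, with means of 88.4 ± 8.59 and 96.9 ± 10.5 CPM (SD, n = 5 each). The log2 fold change was 0.13 (SE 0.0878, 95% interval -0.06 to 0.32, edgeR adjusted p = 0.823; two-sided exact permutation test, p = 0.198).

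*Bhlhe41* (ENSMUSG00000030256, chromosome 6, 145858243 to 145865558, minus strand) was the member with a lower mean in AHRmKO muscle. It was at 83.6, 106.3, 123.5, 79.3 and 72.8 CPM in AHRfl/fl mice 11, 12, 13, 15 and 33 and at 58.9, 69.3, 79.6, 90.4 and 93.7 CPM in AHRmKO mice 8, 9, 19, 22 and 34. The 2 highest mice were AHRfl/fl and the 2 lowest AHRmKO, with overlap between. Means of 93.1 ± 21.2 and 78.4 ± 14.5 CPM (SD, n = 5 each) gave a log2 fold change of -0.25 (SE 0.165, 95% interval -0.61 to 0.11, edgeR adjusted p = 0.826; two-sided exact permutation test, p = 0.246). Without AHRfl/fl mouse 13 the log2 fold change was -0.12. *Bhlhe41* shares 1280 of its 6720 exon bases with *Gm43909* on the opposite strand, which had 28 to 76 counts per mouse.

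*Ciart* (ENSMUSG00000038550, chromosome 3, 95878503 to 95882251, minus strand) was at 8.44, 10.6, 11.4, 8.18 and 8.16 CPM in AHRfl/fl mice 11, 12, 13, 15 and 33. In AHRmKO mice 8, 9, 19, 22 and 34 it was at 8.88, 9.03, 7.36, 17.1 and 9.33 CPM. AHRmKO mouse 22 stood far above all others and AHRmKO mouse 19 was the lowest, although both were low in *Arntl*. The means were 9.35 ± 1.52 and 10.3 ± 3.85 CPM (SD, n = 5 each), with a log2 fold change of 0.15 (SE 0.210, 95% interval -0.31 to 0.60, edgeR adjusted p = 0.935; two-sided exact permutation test, p = 0.794). Without mouse 22 it was -0.11.

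**Figure D2:**
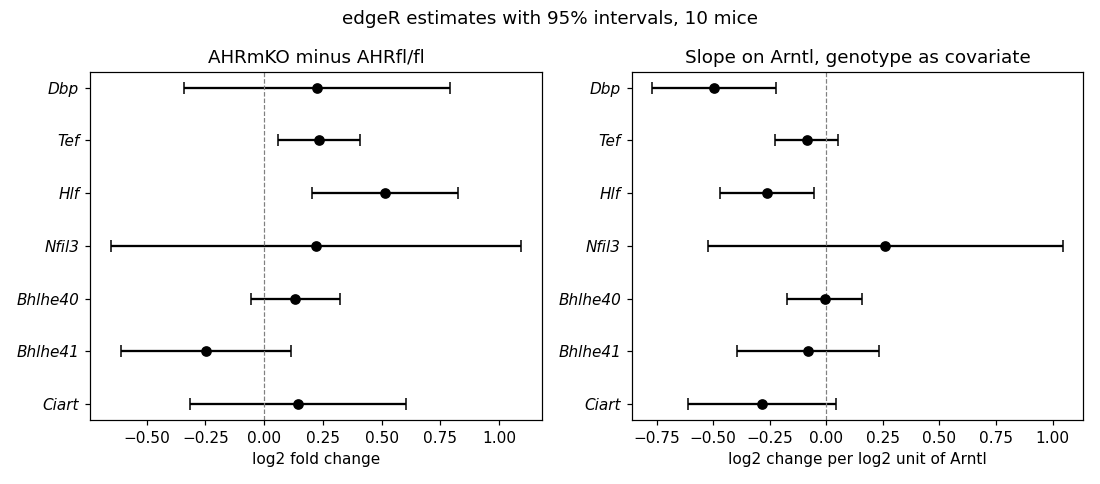
edgeR estimates (points) and 95% intervals (bars) of each member over 10 mice, as the log2 fold change of AHRmKO over AHRfl/fl muscle (left) and as the slope on *Arntl* with genotype as a covariate (right, in log2 units per log2 unit of *Arntl*). The interval leaves out 0 for *Hlf* and *Tef* on the left and for *Dbp* and *Hlf* on the right, before adjustment over all genes.

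Levels per exon length, as TPM computed from the counts, put *Nfil3* and *Tef* at the top and *Hlf* at the bottom. The median over 10 mice was 73.2 TPM for *Nfil3*, 66.9 for *Tef*, 48.8 for *Dbp*, 46.8 for *Bhlhe40*, 29.3 for *Bhlhe41*, 9.83 for *Ciart* and 3.24 TPM for *Hlf*. The order was not fixed at the top, since *Nfil3* was above *Tef* in 6 of 10 mice and *Dbp* above *Bhlhe40* in 5 of 10. *Bhlhe40* was above *Bhlhe41*, *Bhlhe41* above *Ciart* and *Ciart* above *Hlf* in all 10 mice. *Arntl*, at 2.22 to 9.97 TPM, lay near *Ciart* and *Hlf* in level.

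The members differed in how much they varied within genotypes. The pooled SD of log2 CPM was 0.62 for *Nfil3*, more than for 93.2% of all genes tested, and 0.44 for *Dbp*, more than for 81.7%. *Tef* and *Bhlhe40*, at 0.13 and 0.15, varied less than the median gene, at 0.21. *Ciart* was at 0.36, *Bhlhe41* at 0.30 and *Hlf* at 0.26. *Arntl* was at 0.67, more than for 94.99% of genes, and most of its spread was among AHRmKO mice, with an SD of 0.92 there and 0.23 among AHRfl/fl mice.

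The members were then set against *Arntl* (ENSMUSG00000055116, chromosome 7, 113207465 to 113314126, plus strand), the activator at the top of the loop, mouse by mouse. *Arntl* was at 31.0, 28.4, 24.0, 22.4 and 21.4 CPM in AHRfl/fl mice 11, 12, 13, 15 and 33 and at 21.6, 28.3, 9.45, 6.89 and 26.2 CPM in AHRmKO mice 8, 9, 19, 22 and 34. AHRmKO mice 22 and 19 stood apart, with a gap of 1.17 to the next mouse on the log2 scale out of a whole range of 2.16. No AHRfl/fl mouse was as low, but the genotype difference in *Arntl* was within its spread (log2 fold change -0.46, 95% interval -1.32 to 0.40, edgeR adjusted p = 0.868).

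**Figure D3:**
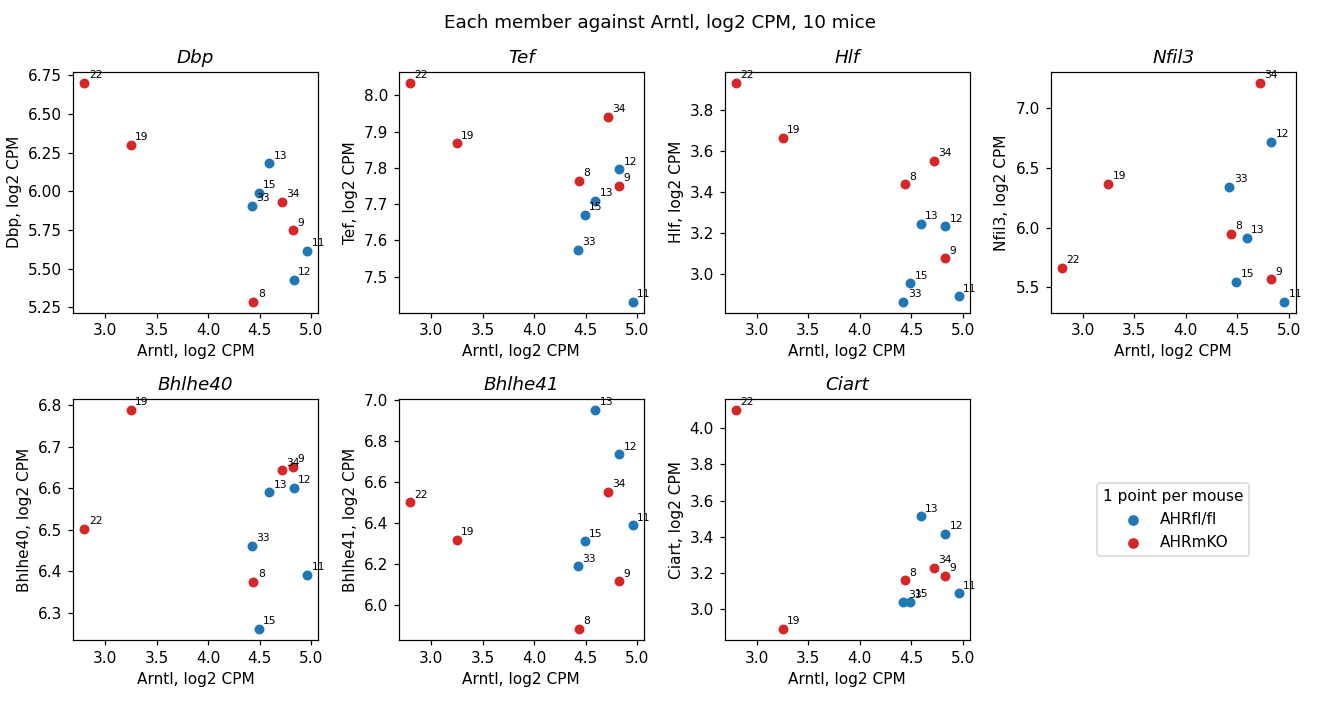
log2 CPM of each member against log2 CPM of *Arntl* in 10 mice, 1 point per mouse numbered by animal, AHRfl/fl in blue and AHRmKO in red. AHRmKO mice 22 and 19 lie apart at the left of each panel, at the top for *Dbp* and *Hlf* and at opposite ends for *Ciart*.

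In the low-*Arntl* mice 22 and 19, *Dbp* was at 104.0 and 78.7 CPM against 39.0 to 72.5 CPM in the other 8 mice, and *Hlf* at 15.2 and 12.6 CPM against 7.23 to 11.7 CPM. These 2 of 7 members had both mice above all others, as did 316 of 14713 genes (2.15%), and 0 members had both below all others (2.41% of genes). *Tef* was highest of all in mouse 22, but AHRmKO mouse 34 exceeded mouse 19. *Bhlhe40* was highest of all in mouse 19 and ordinary in mouse 22. *Bhlhe41* and *Nfil3* were within the range of the other 8 mice in both. The summed level of 5 leukocyte markers was also highest in these 2 mice, at 15.25 and 14.95 CPM against at most 14.5 CPM elsewhere, although no single marker was highest in both, and *Ptprc* was highest of all in mouse 19 (5.79 CPM) and second lowest in mouse 22 (2.42 CPM). The satellite cell sum, at 2.47 and 1.94 CPM, was likewise highest of all in these 2 mice, and the part of either list in the levels was not tested.

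A slope on *Arntl* was fitted for all genes with genotype as a covariate. Of the 7 members 6 had a slope below 0, as did 51.3% of genes, and 0 passed an adjusted p of 0.05 in edgeR's quasi-likelihood test. Over all 14713 genes 0 were called (0%), 950 (6.46%) had an unadjusted p under 0.05, and the DESeq2 Wald test called 28 genes, of which 0 were members. *Dbp* had the steepest slope, -0.49 log2 units per log2 unit of *Arntl* (SE 0.123, 95% interval -0.77 to -0.22, edgeR unadjusted p = 0.00236, adjusted p = 0.696). *Hlf* was at -0.26 (SE 0.0959, 95% interval -0.47 to -0.05, edgeR unadjusted p = 0.0184, adjusted p = 0.727). The other slopes were -0.28 for *Ciart*, -0.09 for *Tef*, -0.08 for *Bhlhe41*, -0.01 for *Bhlhe40* and 0.26 for *Nfil3*, with unadjusted p from 0.0843 to 0.921 in edgeR. The slope of *Ciart* rested on mouse 22, without which it was 0.21, and that of *Tef* was -0.03 without that mouse. The slope of *Hlf* was -0.18 without AHRmKO mouse 9 (edgeR unadjusted p = 0.0993) and -0.19 without mouse 22 (edgeR unadjusted p = 0.213). Without mouse 22 the slope of *Dbp* was -0.41 (edgeR unadjusted p = 0.0532). Slopes of AHRfl/fl and AHRmKO mice were compared by an interaction term, for which 0 of all genes were called in edgeR (0%; 679, or 4.61%, with an unadjusted p under 0.05, and 1 called by DESeq2) and the members' unadjusted p were from 0.334 to 0.888.

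Because mice 22 and 19 formed a cluster of their own, no correlation of a member with *Arntl* over all 10 mice is given. Over the other 8 mice, whose *Arntl* ran from 21.4 to 31.0 CPM, Pearson's r of log2 CPM with *Arntl* was -0.21 for *Dbp* (exact permutation p = 0.610) and -0.06 for *Hlf* (exact permutation p = 0.879). Spearman's rho was -0.24 for *Dbp* (exact permutation p = 0.582) and 0.02 for *Hlf* (exact permutation p = 0.977). *Bhlhe40* had the highest r of the 7 relations computed, 0.43 with rho 0.43 (exact permutation p = 0.278 and 0.299), and for the remaining members r was from -0.10 to 0.32. When the 2 of these 8 mice farthest from the median of *Arntl* were also left out, r was -0.04 for *Dbp*, -0.03 for *Hlf* and 0.83 for *Bhlhe40*. The r of -0.21 for *Dbp* over 8 mice depended on AHRmKO mouse 8, without which r over the remaining 7 mice was -0.71 (exact permutation p = 0.0800). With any other of the 8 mice dropped, r for *Dbp* was from -0.24 to -0.07. Without mice 22 and 19 the slope of *Dbp* was -0.32 with a 95% interval from -1.59 to 0.96, and that of *Hlf* was -0.09 with an interval from -0.92 to 0.75 and both intervals include the slope over 10 mice.

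The core clock list holds 18 genes, of which 16 were tested (*Rorb* and *Fbxl21* were too low), and 0 were called between genotypes by edgeR. By unadjusted p under 0.05, 1 was higher and 2 were lower in AHRmKO muscle, and the list's median log2 fold change was -0.0051 beside 0.0056 over all genes. *Per2*, a repressor of the loop, was at 11.02 ± 2.54 and 19.9 ± 6.42 CPM (SD, n = 5 each), with a log2 fold change of 0.85 (edgeR unadjusted p = 0.0059, adjusted p = 0.606). *Nr1d1*, the REV-ERBα receptor that represses *Arntl* and *Nfil3*, was at 190.4 ± 25.2 and 136.8 ± 42.4 CPM, with a log2 fold change of -0.48 (edgeR unadjusted p = 0.0308, adjusted p = 0.707). Without AHRmKO mice 19 and 22 the log2 fold change was 0.54 for *Per2* and -0.23 for *Nr1d1*. *Csnk1e*, a kinase that marks PER proteins for turnover, had a log2 fold change of -0.22 (edgeR unadjusted p = 0.00716, adjusted p = 0.606).

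**Figure D4:**
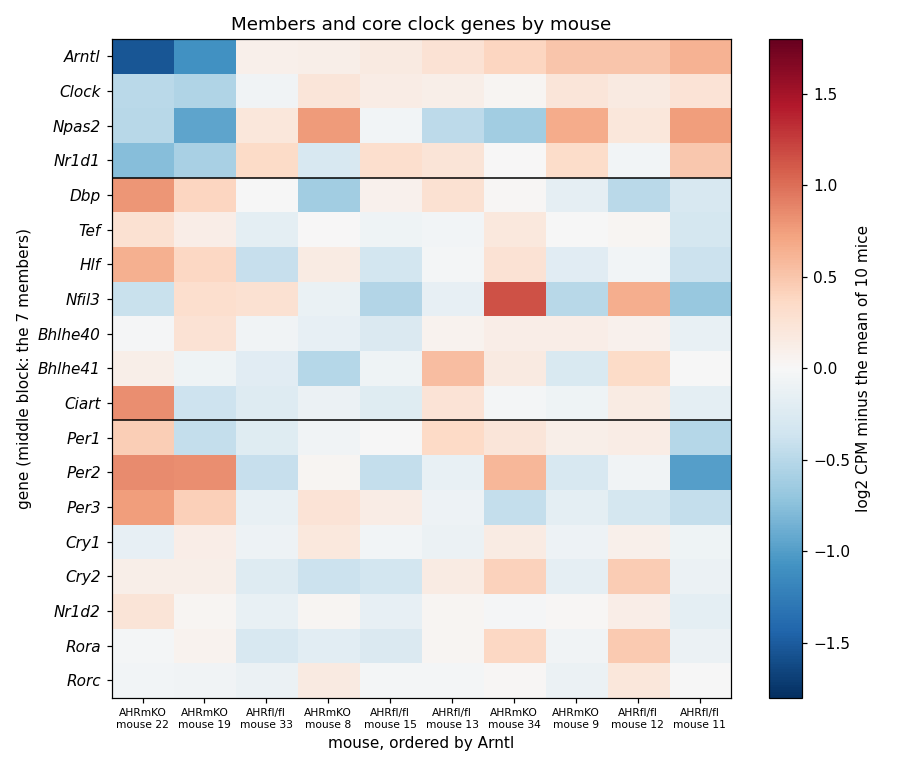
log2 CPM of the 7 members (middle block) and of core clock genes above and below them, as the difference from the mean of 10 mice, with mice ordered from left to right by rising *Arntl*. In AHRmKO mice 22 and 19 *Arntl*, *Clock* and *Nr1d1* are low while *Dbp*, *Hlf*, *Per2* and *Per3* are high.

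Mice 22 and 19 differed from the rest across the loop and not in *Arntl* alone. *Clock*, the partner of *Arntl*, was at 16.0 and 15.4 CPM there against 21.5 to 26.8 CPM in the other 8 mice, and *Nr1d1* at 92.9 and 105.4 CPM against 129.2 to 220.7 CPM. *Per2* was at 25.7 and 25.7 CPM against 7.19 to 21.7 CPM, and *Per3* at 26.8 and 21.5 CPM against 11.7 to 18.9 CPM. The low and the high genes each included repressors of the loop. Of the 15 slopes on *Arntl* fitted for this list, 3 were above 0 and 2 below 0 by unadjusted p under 0.05, and 0 were called by edgeR. *Clock* had a slope of 0.39 (edgeR unadjusted p = 4.6e-05, adjusted p = 0.170), and *Per3* one of -0.48 (edgeR unadjusted p = 0.000132, adjusted p = 0.203).

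Genes known to be driven by the clock or by the PAR bZIP factors were read as a list of 13, all of them tested. Between genotypes 0 were called by edgeR, with 2 higher and 1 lower in AHRmKO muscle by unadjusted p under 0.05 and a median log2 fold change of 0.12. They were *Tspan4*, a membrane protein whose transcript cycles in many tissues (log2 fold change 0.50, edgeR unadjusted p = 0.00961, adjusted p = 0.654), *Myod1*, a muscle determination factor (0.59, edgeR unadjusted p = 0.00704, adjusted p = 0.606), and *Alas1*, the first enzyme of haem synthesis (-0.25, edgeR unadjusted p = 0.00581, adjusted p = 0.606). Without AHRmKO mice 19 and 22 the log2 fold change of *Tspan4* was 0.26. Of the 13 slopes on *Arntl*, 0 were called by edgeR and 2 were below 0 by unadjusted p under 0.05. Those 2 were of *Tspan4*, at -0.37 (edgeR unadjusted p = 0.00166, adjusted p = 0.680), and of *Tcap*, a sarcomere protein, at -0.24 (edgeR unadjusted p = 0.00248, adjusted p = 0.696). With AHRmKO mice 19 and 22 left out they were -0.76 (edgeR unadjusted p = 0.0509) and -0.32 (edgeR unadjusted p = 0.203). Among 13 tested bZIP and bHLH factors related to the members, *Ahr* itself included, 0 were called by edgeR and 4 had a higher estimate in AHRmKO muscle, and *Hey1*, a Notch target, was the one with an unadjusted p under 0.05 (log2 fold change 0.94, edgeR unadjusted p = 0.0215, adjusted p = 0.668).

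The genes whose mouse-to-mouse pattern was most like each member were sought among 12131 genes of at least 1 CPM, by Pearson's r of log2 CPM over 10 mice after the mean of each genotype was removed. With so many genes and 10 mice of a shared set of libraries, high values arise for every gene, and mice 22 and 19, which stood apart, are among the points, so they are given as a description. For *Dbp* they were *Paxx*, *Cryz* and *Rilp* (r = 0.95 to 0.92), for *Tef* *Aspscr1*, *Col11a2* and *Commd5* (0.94 to 0.93), and for *Hlf* *Mrps11*, *Shmt1* and *Ints11* (0.97 to 0.95). *Nfil3* lay closest to *Atp6v1b2*, *Slc38a2* and *Ifrd1* (0.98 to 0.95). *Bhlhe40* lay closest to *Sys1*, *Scamp1* and *Pak1* (0.96 to 0.94), *Bhlhe41* to *Ubald1*, *Hsf4* and *Carns1* (0.97 to 0.94), and *Ciart* to *Lurap1l*, *Alg6* and *Zfp97* (0.90 to 0.89). The lowest r were those of *Ece1* to *Dbp*, *2510009E07Rik* to *Tef*, *Lnx1* to *Hlf*, *Gpr137b* to *Nfil3*, *Ilk* to *Bhlhe40*, *Ralb* to *Bhlhe41* and *Atxn7l1* to *Ciart*, from -0.98 to -0.89. No member was among the 3 genes closest to another member, and the closest pair among them was *Tef* and *Hlf* (r = 0.80).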

How the data were processed

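RNA from the gastrocnemius of 10 mice was analysed. Per the submitters' processing notes, Trimmomatic 0.36 was used for trimming and STAR 2.5.2b for alignment, on GRCm38. The authors counted unique exon reads per gene with featureCounts, and deposited raw counts, 1 column per mouse, not normalized or pooled. The Ensembl release and the strandedness were not given in the sources used here.

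Gene names, positions and exon lengths came from GENCODE M21, which holds 49056 of the 49315 identifiers. In R 4.3.3, genes were filtered with filterByExpr (minimum count 10, minimum total 15), normalized by TMM and compared with edgeR 4.0.16's quasi-likelihood test (robust), Benjamini-Hochberg adjusted over all genes tested. log2 CPM used a prior count of 2. *Arntl* slopes used log2 CPM of *Arntl* and genotype. Single genes were compared by exact permutation over mice, whose smallest p is 0.00794. The planned correlation over 10 mice was replaced by 8, because 2 mice stood apart. Alternatives used DESeq2 1.42.0, limma 3.58.1 voom, sva 3.50.0, other scalings and filters, and each mouse left out. Fits were tested on simulated data, but the outcome is not given here and no result rests on it.

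Each mouse was 1 replicate. The floor of 3 counts, here per library total before TMM, was between 0.079 and 0.0987 CPM and covers counting error only. The genes named are the members, *Arntl*, *Ahr*, core clock genes, the 3 most and 1 least similar genes of each member, and up to 3 genes by p of other lists. The members and lists were chosen with earlier results of these data known.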

Additional observations from a re-analysis of the deposited data

Results flagged for a closer look

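*Ciart* in AHRmKO mouse 22, at 17.1 CPM, lay above the other AHRmKO mice, which were at 7.36 to 9.33 CPM, with a gap of 0.719 of the group's range on the log2 scale. The values of 8 genes in each of the 2 genotypes, 16 groups of 5 mice, were looked at in this way, and chance would flag 0.8 of them.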

How the results depend on the processing

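No paired analysis was possible because the mouse numbers in the labels do not repeat between the genotypes. In all settings 0 members were called. The count of genes called between genotypes, 1, was 21 with the DESeq2 Wald test, 5 with no filter beyond 1 count, and 1 to 6 over the fits that each dropped one mouse (6 without AHRmKO mouse 34). The count for the *Arntl* slope, 0, was 28 with DESeq2, 10 with no filter, 4 without the genotype term, 1 with library size only, 1 at a threshold of 0.1, 1 when mice with *Xist* counts were marked by a covariate, and 0 to 2 over the fits that each dropped one mouse (2 without AHRmKO mouse 8, 1 without AHRmKO mouse 19). That for the difference of slopes, 0, was 1 with DESeq2. The cause was not tested.

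Of 455 recomputed single values, 428 kept direction and side of the threshold, 26 turned direction and 1 crossed the threshold. With *Arntl* as a covariate the log2 fold change was -0.145 for *Dbp* and -0.0661 for *Ciart*, and with AHRmKO mice 22 and 19 left out, an alternative chosen after seeing the data like that with *Xist*, it was -0.165 and -0.0397. Those mice left out, the slope was 0.31 for *Bhlhe40*, 0.54 for *Bhlhe41* and 0.17 for *Ciart*. The slope of *Bhlhe40* was 0.00198 with no filter, that of *Bhlhe41* 0.0285 without the genotype term, and r of *Ciart* over 8 mice -0.14 with library size only. When each mouse was dropped in turn, log2 fold changes ran from 0.01 to 0.37 for *Dbp* (highest without AHRmKO mouse 8), from 0.09 to 0.18 for *Bhlhe40*, from -0.33 to -0.12 for *Bhlhe41*, from -0.15 to 0.44 for *Nfil3* and from -0.11 to 0.25 for *Ciart*. The slope was from -0.33 to -0.18 for *Hlf*, from -0.13 to -0.03 for *Tef*, from -0.13 to 0.49 for *Nfil3*, from -0.0822 to 0.0556 for *Bhlhe40*, from -0.19 to 0.0177 for *Bhlhe41* and from -0.43 to 0.21 for *Ciart*. The difference of mean log2 CPM was from -0.0076 to 0.35 for *Dbp*, from -0.0949 to 0.36 for *Nfil3* and from -0.10 to 0.20 for *Ciart*. Over 8 mice r was from -0.71 (without AHRmKO mouse 8) to -0.07 for *Dbp*, from -0.32 to 0.60 for *Tef*, from -0.36 to 0.26 for *Hlf*, from -0.23 to 0.29 for *Nfil3*, and up to 0.79 for *Bhlhe40* without AHRfl/fl mouse 11 (exact permutation p = 0.0460). All members had over 200 counts in each mouse, and each genotype had 5 mice. The part of depth and of the number of mice in the width of the intervals was not tested.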
